A study of Mus musculus with 6 samples.

Results

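Glycolysis, gluconeogenesis and pyruvate handling were followed through 45 mouse gene symbols, the enzymes from hexokinase to lactate and pyruvate dehydrogenase, the carriers and regulators that bring pyruvate into the mitochondrion, and the enzymes of gluconeogenesis. The symbols were matched through Ensembl identifiers to 46 of the 55450 rows of a gene count table, because Aldoa had 2 rows. A filter on low counts left 42 of these rows for testing, and the other 4 rows, Hk3, Eno2, Ldhb and the second Aldoa row, are given by their counts. The table held polyA RNA-seq libraries of scraped small intestinal epithelium, from 3 knockout mice and 3 control mice. Knockout mice were Vil1-Cre-ERT2+ and homozygous for floxed alleles of both targeted nuclear receptor corepressor genes, one of them Ncor1 (Ncor1loxP/loxP). Control mice carried the same floxed alleles and were Vil1-Cre-ERT2-. The Cre is driven by the villin 1 promoter, which is active in intestinal epithelial cells, and becomes active after tamoxifen. At 8 to 9 weeks of age the mice received tamoxifen at 15 mg per 100 g body weight on 5 days, and they entered metabolic cages at day 21. Only knockout mice carried the Cre transgene, so an effect of active Cre and an effect of losing the corepressors cannot be told apart. Per the labels' protocols, duodenum, jejunum and ileum were scraped separately, and which section each library came from is not given in the labels.

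Glycolysis splits glucose into pyruvate in the cytosol. Pyruvate is then either reduced to lactate by lactate dehydrogenase or carried into the mitochondrion, where the pyruvate dehydrogenase complex turns it into acetyl-CoA. Gluconeogenesis runs the path in the other direction and uses its own enzymes at the irreversible steps: pyruvate carboxylase, PEP carboxykinase, fructose bisphosphatase and glucose-6-phosphatase. Liver and kidney are the main gluconeogenic organs, and the small intestine also expresses these enzymes. NCOR1 is a corepressor that nuclear receptors recruit, together with histone deacetylases, to genes they repress.

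Total counts ran from 23476031 to 46835165 per library, and 3 counts corresponded to 0.0586 to 0.173 CPM (counts divided by the library total, scaled by the trimmed mean of M-values, TMM). Ncor1 averaged 30.1 ± 7.03 CPM in knockout libraries and 125.7 ± 22.9 CPM in control libraries (SD, n = 3 each), a log2 ratio (fold change on the log2 scale, knockout over control) of -2.06 with an SE of 0.25 (adjusted p = 0.000447). The summed level of 9 enterocyte markers was 97710 to 186700 CPM in knockout libraries and 44070 to 63570 CPM in control libraries. Of these markers, 3 rose and 1, Vil1 itself, fell. Markers of other cells also differed: all 6 tuft cell markers fell (1.495 to 6.84 CPM summed in knockout, 56.1 to 176.6 CPM in control), and all 5 erythrocyte markers rose (35.5 to 543 CPM in knockout, 7.95 to 22.2 CPM in control). Of 5 Paneth cell markers 3 fell (sums of 353 to 582.5 CPM in knockout, 523 to 2461 CPM in control). The 7 proliferation markers summed to 129 to 188 CPM in knockout and 54.9 to 88.3 CPM in control without overlap, and 1 of them passed the test and rose. The 5 pancreatic acinar markers summed to 32.2 to 47.6 CPM in knockout and 7.145 to 14.3 CPM in control, mostly Cela1, which rose, while Cpa1, Prss2, Pnlip and Cel were below the filter on low counts. Red blood cells live by glycolysis, and the part of their RNA, and of the other cells named here, in the values below was not tested. Of 5 proximal small intestinal markers 2 rose, and of 4 tested distal ones 2 fell. The 5 proximal markers summed to 13340 to 19670 CPM in knockout and 2929 to 4327 CPM in control. The 5 listed distal ones summed to 18.2 to 25.6 CPM in knockout and 54.9 to 81.6 CPM in control. Neither sum overlapped between the groups, and the effect of the intestinal section on the values below was not tested. The 6 skeletal and cardiac muscle markers summed to 0.964 to 1.15 CPM in knockout and 2.47 to 2.89 CPM in control, and Myh1, Myh4, Myh6 and Mb had no count in any library. In bulk tissue, fewer cells of a type and less RNA per cell cannot be told apart.

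Of the 42 tested members, 6 rose and 3 fell in knockout epithelium with a p below 0.05 after Benjamini-Hochberg adjustment over all 15028 genes in edgeR's quasi-likelihood fit. Pgk1, Pck2, G6pc, Aldoc, Eno3 and G6pc3 rose, and Pck1, Pdk2 and Hk1 fell. These 9 were 21.4% of the tested members, against 35.6% of all genes tested, of which 17.3% rose and 18.3% fell. The median log2 ratio was -0.04 over the tested members and -0.06 over all genes tested, and the median size without sign was 0.41 over the members and 0.66 over all genes. The groups did not overlap in 13 members, against 50.3% of all genes. The remaining 33 members had log2 ratios of -0.61 to 1.00, 13 above and 20 below 0, and 6 of them had an unadjusted p under 0.05. DESeq2 counted 8 members that rose, the same 6 with Ldha and Pfkfb1, and the same 3 that fell. The counts moved when single animals were left out: 2 members rose without control 482 or without knockout 477, and 1 fell without control 482, without control 483 or without knockout 477. Calls over all genes also dropped there, from 5348 to 3299 without control 482, 3545 without control 483 and 3396 without knockout 477. They were 5940 without control 486. Scaling to library size alone moved the median of all genes by -0.44 on the log2 scale and left 2 members that rose and 11 that fell. Removing trends with length and GC content moved the members' median to 0.31 and that of all genes to 0.098. It gave 11 members that rose and 4 that fell.

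**Figure D1:**
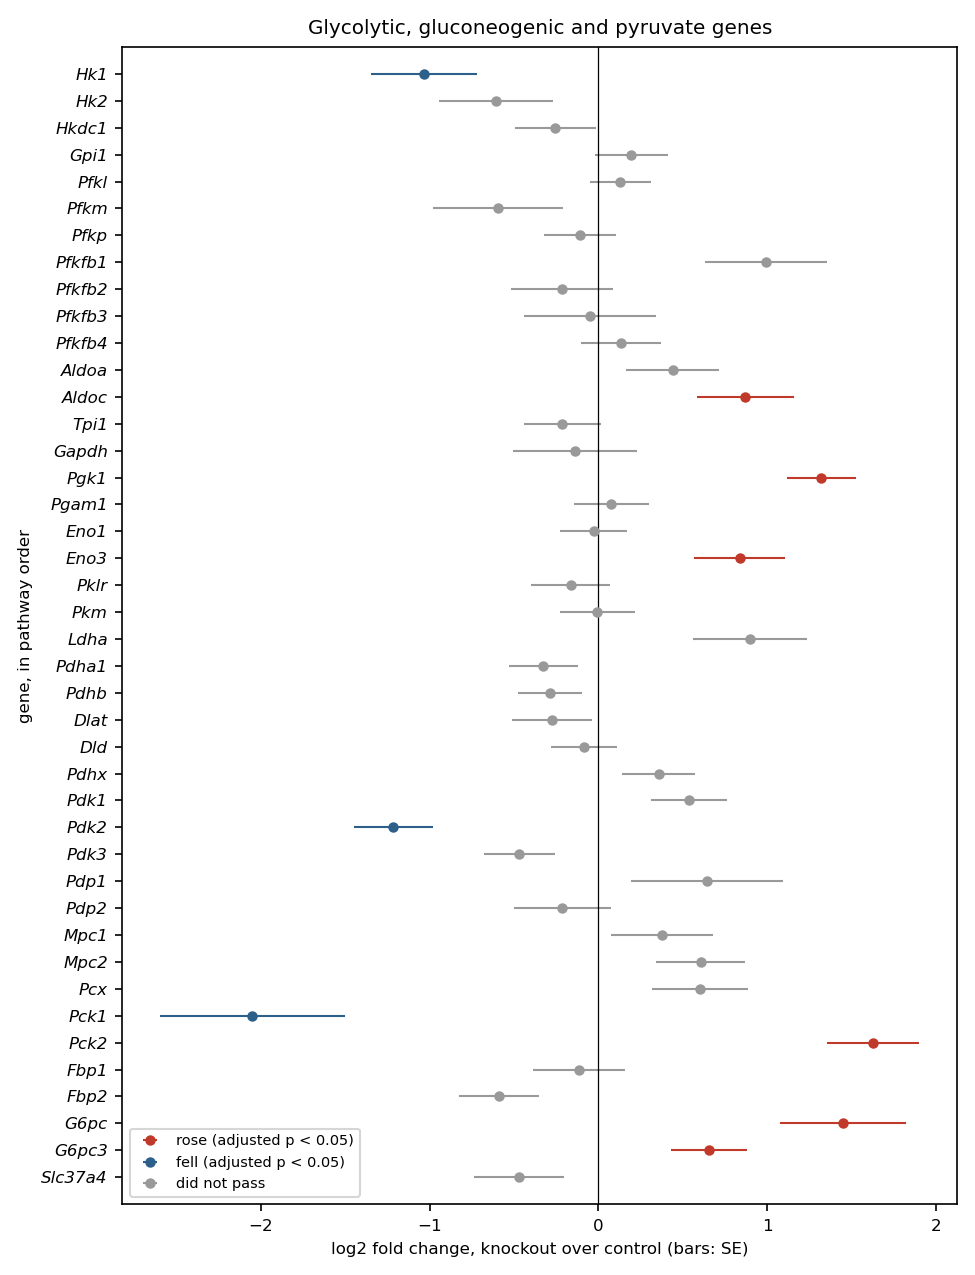
Log2 ratio, knockout over control, of the 42 tested members (points, with bars of 1 SE either side; x axis in log2 units), coloured by the outcome of the test. The 9 members that passed run from -2.05 (Pck1) to 1.63 (Pck2), and the other 33 sit within 1 log2 unit of 0.

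Levels per length, in CPM per kilobase of exon, set the scale of the pathway in this tissue. Ldha, which reduces pyruvate to lactate, was by far the most abundant member, with a mean of 1217 CPM per kb in knockout and 653 CPM per kb in control. Tpi1 (258 and 299 CPM per kb, knockout and control), Fbp2 (169 and 255), Aldoa (197 and 145) and Pkm (155 and 155) followed. Of the members that passed the test, Pck1 stood at 25.2 CPM per kb in knockout and 104 CPM per kb in control, and Pgk1 at 68.2 CPM per kb in knockout and 27.3 CPM per kb in control. Pck2 (1.80 and 0.581) and Hk1 (0.446 and 0.919) were far lower. Near-identical copies and overlapping genes, taken up below for single members, limit these levels. So does the exon length per gene, since the lengths of the transcripts present were not measured. Before division by length, Pkm (774 and 777 CPM, knockout and control, 5001 bases of exon) lay above Fbp2 (249 and 374 CPM, 1469 bases). The isozyme shares below use the same lengths.

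**Figure D2:**
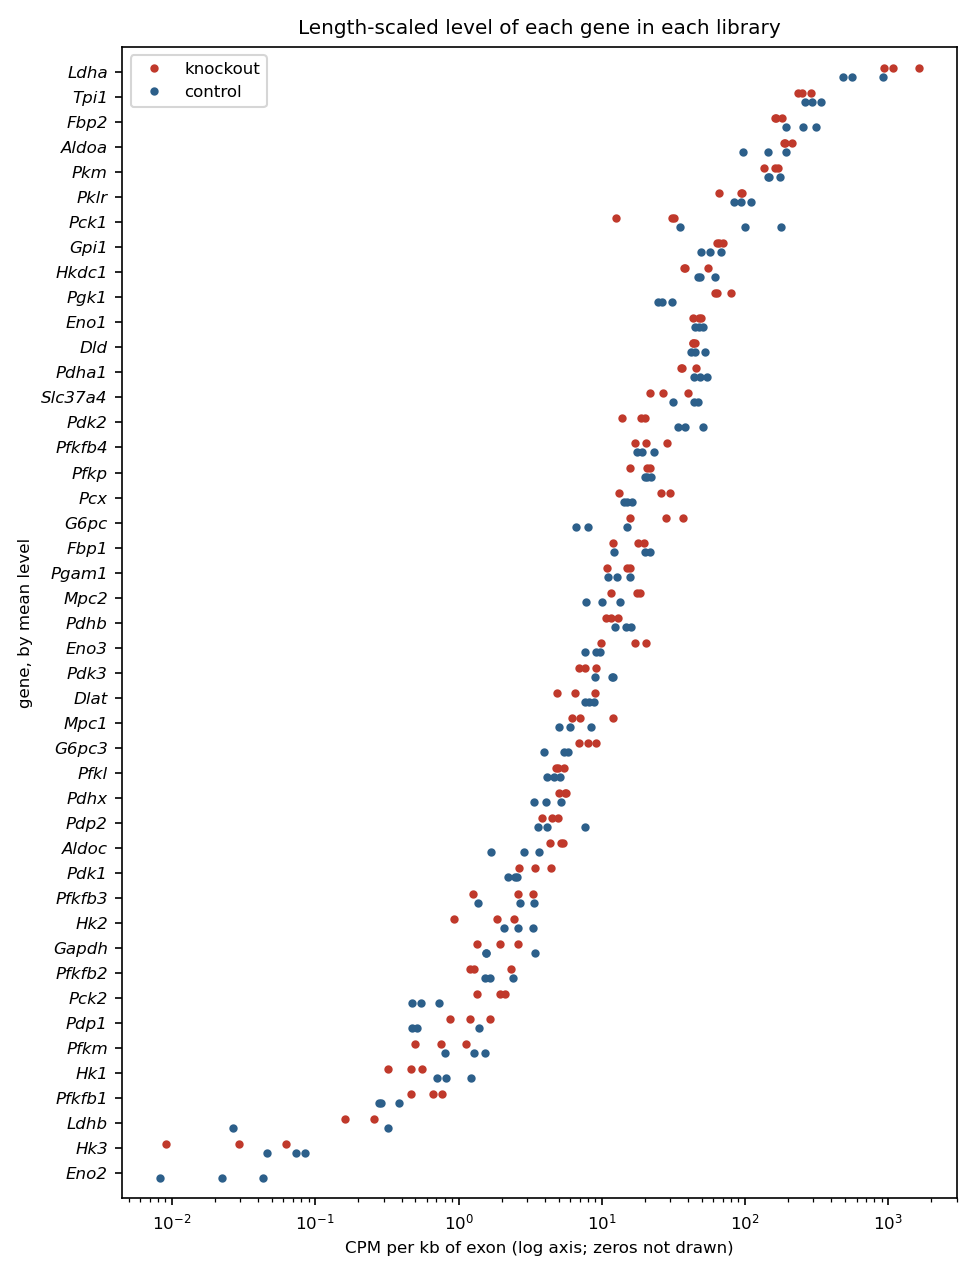
Level of each of the 45 genes in every library, in CPM per kilobase of exon on a log axis, knockout points above control points within each row (zeros and the second Aldoa row are not drawn). Ldha lies highest, at means of 1217 CPM per kb in knockout and 653 CPM per kb in control, and Ldhb, Hk3 and Eno2, which did not pass the filter, lie lowest.

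At the first step, glucose phosphorylation, the one hexokinase that changed was a minor one. Hk1, the hexokinase of most tissues (chr10:62268855-62379908, mm10, minus strand), had 3.94, 4.72 and 2.76 CPM in knockout libraries, against 10.5, 7.02 and 5.995 CPM in control libraries. Every knockout library was below every control library. Its log2 ratio was -1.03 with an SE of 0.32 (adjusted p = 0.0304). Hkdc1, a hexokinase-like gene expressed in gut epithelium, held 95.2% ± 1.33 of the length-scaled hexokinase counts in knockout and 93.5% ± 0.485 in control (SD, n = 3 each). Hkdc1 had 192, 284 and 197 CPM in knockout, against 315, 240.5 and 249 CPM in control, with overlapping groups and a log2 ratio of -0.26 (SE 0.24, adjusted p = 0.426). Hk2 had a log2 ratio of -0.61 (SE 0.34, adjusted p = 0.185), and Hk3, a hexokinase of blood cells, had 3, 1 and 4 counts in knockout against 8, 8 and 16 in control. The Hk1 call was lost without control 482 (adjusted p = 0.122), control 483 (0.0527), knockout 423 (0.0699) or knockout 477 (0.1). It was also lost after the length and GC trends were removed, where its log2 ratio was -0.33.

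Phosphofructokinase commits glucose to glycolysis, and fructose 2,6-bisphosphate activates it. None of the 7 genes for the enzyme and for its activator passed in the edgeR fit, beside 35.6% of all genes tested. There 1 of the 7, Pfkfb1, had an unadjusted p under 0.05, and DESeq2 called the same 1. Pfkp, the platelet-type subunit, held most of the length-scaled phosphofructokinase counts (76.4% ± 5.18 in knockout, 78.2% ± 2.34 in control), ahead of the liver-type Pfkl, with the muscle-type Pfkm least. Log2 ratios were -0.11 for Pfkp, 0.13 for Pfkl and -0.60 for Pfkm. Among the bifunctional enzymes that make and remove fructose 2,6-bisphosphate, Pfkfb4 held 82.6% ± 3.31 of counts in knockout and 81.2% ± 3.08 in control. Pfkfb1, the liver-type form, was scarce, with 1.88, 3.09 and 2.65 CPM in knockout against 1.12, 1.15 and 1.54 CPM in control. Its groups did not overlap, and its log2 ratio was 1.00 with an SE of 0.36 (adjusted p = 0.0557). It passed without knockout 423 (log2 ratio 1.20, adjusted p = 0.0448) and in 5 alternatives of scaling, filter, tool or trend removal. Pfkfb1 shares 3.06% of its exon length with the opposite gene Apex2. The Apex2 row held 53 to 123 counts per library, beside 34 to 93 for Pfkfb1. Gpi1, which precedes phosphofructokinase, had 424, 449 and 412 CPM in knockout against 369.7, 317 and 435 CPM in control, with a log2 ratio of 0.20 (SE 0.22, adjusted p = 0.506).

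In the later steps of glycolysis Pgk1 rose most. Phosphoglycerate kinase makes the first ATP of the pathway, and its gene (chrX:106187100-106203699, plus strand) had 142, 139 and 178 CPM in knockout libraries, against 54.99, 58.9 and 69.7 CPM in control libraries. All knockout libraries lay far above all control libraries. The means were 153 ± 21.6 CPM in knockout and 61.2 ± 7.64 CPM in control (SD, n = 3 each), a log2 ratio of 1.32 with an SE of 0.21 (adjusted p = 0.00173). Pgk1 passed the test in all 18 alternatives, with log2 ratios of 0.87 to 1.43. The 250 bases before its RefSeq start (GRCm38.p6, chrX:106186850-106187099, plus strand) are shown because Pgk1 rose most among the glycolytic members. Capitals mark the letters ACGTG on either strand, the core of the hypoxia response element, which lie 150 and 131 bases before the start.
Pgk1: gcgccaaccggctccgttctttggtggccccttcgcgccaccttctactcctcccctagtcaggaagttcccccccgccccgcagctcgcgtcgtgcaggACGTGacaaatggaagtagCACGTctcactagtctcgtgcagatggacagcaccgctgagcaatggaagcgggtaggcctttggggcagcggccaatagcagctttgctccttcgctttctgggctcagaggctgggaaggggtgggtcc

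The other enzymes of these steps differed among themselves. Aldoc, the brain-type aldolase (chr11:78322968-78327781, plus strand), had 17.5, 14.2 and 17.0 CPM in knockout against 5.48, 11.9 and 9.33 CPM in control, without overlap. Its log2 ratio was 0.87 with an SE of 0.29 (adjusted p = 0.04). Aldoa, the muscle-type aldolase, had 547, 553 and 621 CPM in knockout against 423, 279.9 and 566 CPM in control, with overlap and a log2 ratio of 0.44 (SE 0.28, adjusted p = 0.237). Of the length-scaled counts of Aldoa and Aldoc alone, Aldoa held 97.5% ± 0.279 in knockout and 97.9% ± 1.36 in control (SD, n = 3 each). The second Aldoa row had 1, 2 and 2 counts in knockout and 10, 1 and 1 in control. Eno3, the muscle-type enolase (chr11:70657202-70662513, plus strand), had 17.2, 29.5 and 35.7 CPM in knockout against 16.9, 13.3 and 15.8 CPM in control. The groups did not overlap, but knockout 423 lay just above the highest control library. Its log2 ratio was 0.84 with an SE of 0.27 (adjusted p = 0.0375), and its share of length-scaled enolase counts was 24.8% ± 5.69 in knockout and 15.6% ± 1.96 in control. Eno1, the enolase of most tissues, had a log2 ratio of -0.03 (adjusted p = 0.922). Eno2, the neuronal one, had no count in knockout libraries and 5, 6 and 2 in control. Eno2 was not tested. With a floor of 3 counts over the knockout group and the control counts taken as exact, it was at least 2.54-fold lower in knockout. Tpi1, which interconverts the triose phosphates, had 692, 642 and 798 CPM in knockout against 724, 808 and 941 CPM in control, with overlap and a log2 ratio of -0.21 (SE 0.23, adjusted p = 0.484). Pgam1 had a log2 ratio of 0.08 (adjusted p = 0.807).

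The Aldoc and Eno3 calls lay near the threshold, and each was lost on leaving out most of the single animals. Their log2 ratios then stayed at 0.61 to 1.13 for Aldoc and 0.62 to 1.12 for Eno3. Aldoc missed the threshold without control 482 (adjusted p = 0.112), control 486 (0.0545), knockout 423 (0.0958), knockout 476 (0.0555) or knockout 477 (0.101). Eno3 missed it without control 482 (adjusted p = 0.0647), control 483 (0.115), control 486 (0.055), knockout 476 (0.0856) or knockout 477 (0.139). With scaling to library size alone neither passed, and Eno3 also missed with limma-voom (0.0557) and with the length and GC trends removed (0.0558).

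Gapdh, the dehydrogenase between the trioses and 1,3-bisphosphoglycerate, showed how counts of this pathway depend on near-identical copies. Its row held 8.03, 10.8 and 5.58 CPM in knockout, against 14.1, 6.42 and 6.44 CPM in control, with overlap and a log2 ratio of -0.14 (SE 0.37, adjusted p = 0.791). The annotation held 127 other genes with a stretch of at least 200 bases at 95% identity or more to its transcripts, 122 of them pseudogenes. Their counts made up 86.7%, 84.5% and 91.1% of the sum of Gapdh and its copies in knockout libraries and 68.8%, 80.4% and 81.7% in control libraries. With the copies added, the sum was 60.6, 69.6 and 62.4 CPM in knockout against 45.1, 32.7 and 35.1 CPM in control, without overlap. The log2 ratio of the sum was 0.77 with an SE of 0.20 (adjusted p = 0.0151), opposite in sign to that of the Gapdh row. Over all libraries the sum stayed well below the rows of Aldoa (279.9 to 621 CPM) and Tpi1 (642 to 941 CPM) at nearby steps. The Gapdh row and the sum are both uncertain, since the sources used here do not say how reads with several matches were counted. Copies held 82.3% to 85.5% of such sums for Mpc1, 50.04% to 55.7% for Pgam1 and 22.8% to 26.6% for Eno1 over all 6 libraries. Pgk1 with its 4 copies kept a log2 ratio of 1.31 (adjusted p = 0.00188), and Pkm, at -0.01 in its own row, stood at 0.00 with its copy. No other member with copies changed its sign or its side of the threshold.

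**Figure D3:**
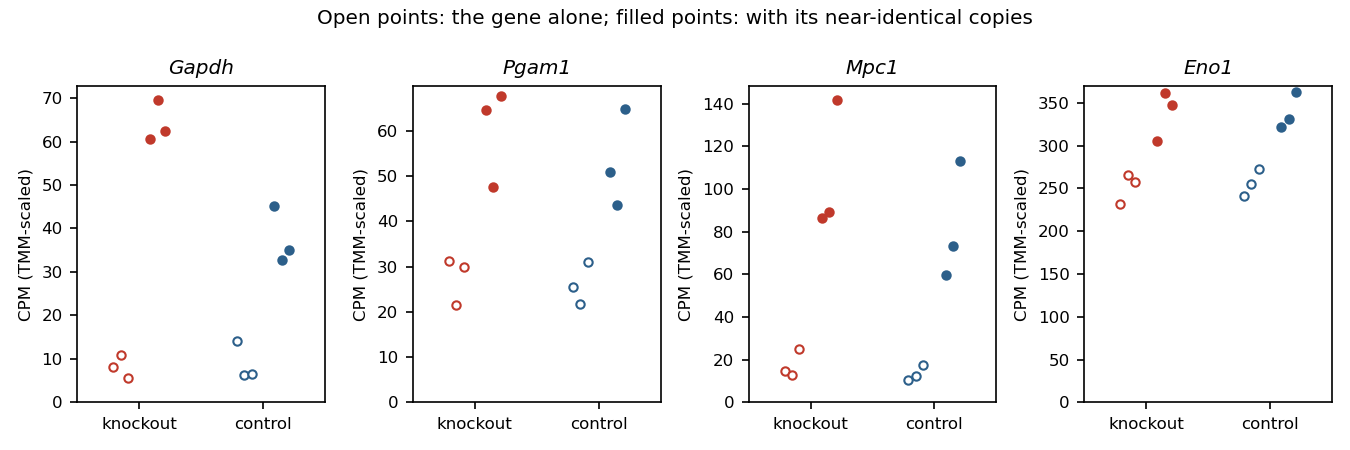
CPM of Gapdh, Pgam1, Mpc1 and Eno1 in each library (y axis, TMM-scaled, starting at 0), knockout left of control; open points are the gene's own row and filled points the row with its near-identical copies added. The filled Gapdh points lie at 60.6 to 69.6 CPM in knockout and 32.7 to 45.1 CPM in control without overlap, while the open ones overlap.

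Of the tested genes at the end of glycolysis, Ldha, Pkm and Pklr, none passed in the edgeR fit, beside 35.6% of all genes tested. Ldha had an unadjusted p under 0.05 and passed in DESeq2. Ldha (chr7:46841475-46855627, plus strand) had 3097, 3562 and 5428 CPM in knockout libraries, against 1840.2, 1590.1 and 3053 CPM in control libraries. The groups did not overlap, though knockout 423 lay only just above control 486. Its log2 ratio was 0.90 with an SE of 0.34 (adjusted p = 0.0623). Ldha passed with DESeq2 (adjusted p = 0.0195), limma-voom (0.0471), upper-quartile scaling (0.0473), no filter on low counts (0.0374) and the length and GC trends removed (0.0484), and without control 486 (log2 ratio 1.231, adjusted p = 0.0187). Ldhb, the heart-type subunit, had 7, 0 and 7 counts in knockout and 2, 15 and 0 in control, so Ldha held nearly all lactate dehydrogenase counts of the pair. Pkm, the pyruvate kinase of most tissues, had 674, 804 and 844 CPM in knockout against 726, 874 and 731 CPM in control (log2 ratio -0.01, SE 0.22, adjusted p = 0.988). Pklr, the liver and red cell form, had 212, 306 and 309.5 CPM in knockout against 304, 353 and 269 CPM in control (log2 ratio -0.16, SE 0.24, adjusted p = 0.61). Both overlapped between the groups, and Pkm held 64.7% ± 2.30 of the pyruvate kinase counts in knockout and 62.0% ± 1.56 in control. Pklr shares 22.0% of its exon length with the opposite gene Hcn3, whose row held 10 to 49 counts per library, beside 5381 to 14411 for Pklr. Pkm shares 15.34% of its exon length with Gm49759 on the same strand. The Gm49759 row held 56 to 1147 counts per library, beside 14681 to 37429 for Pkm.

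Of the 12 members for pyruvate entry into the mitochondrion and its regulation, 1 passed, beside 35.6% of all genes tested. Pdk2 (chr11:95026258-95041354, minus strand), a kinase that phosphorylates and switches off pyruvate dehydrogenase, had 63.7, 59.7 and 43.7 CPM in knockout libraries, against 120.4, 161 and 107 CPM in control libraries. The groups were well separated. Its means were 55.7 ± 10.6 CPM in knockout and 129 ± 27.9 CPM in control (SD, n = 3 each), a log2 ratio of -1.21 with an SE of 0.24 (adjusted p = 0.00479), and it passed in all 17 alternatives. Pdk1, the kinase induced in hypoxia, had 26.6, 20.7 and 34.6 CPM in knockout against 19.2, 17.3 and 19.9 CPM in control. It did not overlap between the groups but did not pass (log2 ratio 0.54, SE 0.23, adjusted p = 0.0895), except without knockout 476 (0.72, adjusted p = 0.043) and with the length and GC trends removed. Pdk3 had a log2 ratio of -0.47 (adjusted p = 0.105). Of the length-scaled counts of these 3 kinases, Pdk2 held 60.4% ± 6.63 in knockout and 75.1% ± 4.48 in control, and Pdk1 held 12.3% ± 4.23 in knockout and 4.57% ± 0.995 in control, both without overlap. This share leaves out Pdk4, the kinase of fasting, which is not among the 45 symbols. Pdk4 had 391.6, 615 and 326 CPM in knockout against 5.50, 39.8 and 2.32 CPM in control and rose (log2 ratio 4.82, SE 1.07, adjusted p = 0.0136), and per length it averaged 126.5 CPM per kb in knockout and 4.52 CPM per kb in control, beside 17.6 and 40.9 CPM per kb for Pdk2.

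The complex itself had no subunit past the test in edgeR, beside 35.6% of all genes tested that passed. It also had none past the test in DESeq2 and none with an unadjusted p under 0.05. Its subunits Pdha1, Pdhb, Dlat, Dld and Pdhx had log2 ratios of -0.33, -0.29, -0.28, -0.09 and 0.36, with adjusted p of 0.216 to 0.749 and overlapping groups. The phosphatases that switch the complex back on, Pdp1 and Pdp2, had log2 ratios of 0.64 and -0.21, and Pdp1 passed without control 486 (1.33, adjusted p = 0.0227). The carrier subunits Mpc1 and Mpc2, which together bring pyruvate through the inner membrane, had log2 ratios of 0.38 and 0.61. Mpc2 (adjusted p = 0.1) passed without control 486 (0.84, adjusted p = 0.0308). Pdha1 shares 16.15% of its exon length with the opposite gene Map3k15, whose row held 0 to 98 counts per library, beside 2334 to 10438 for Pdha1.

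**Figure D4:**
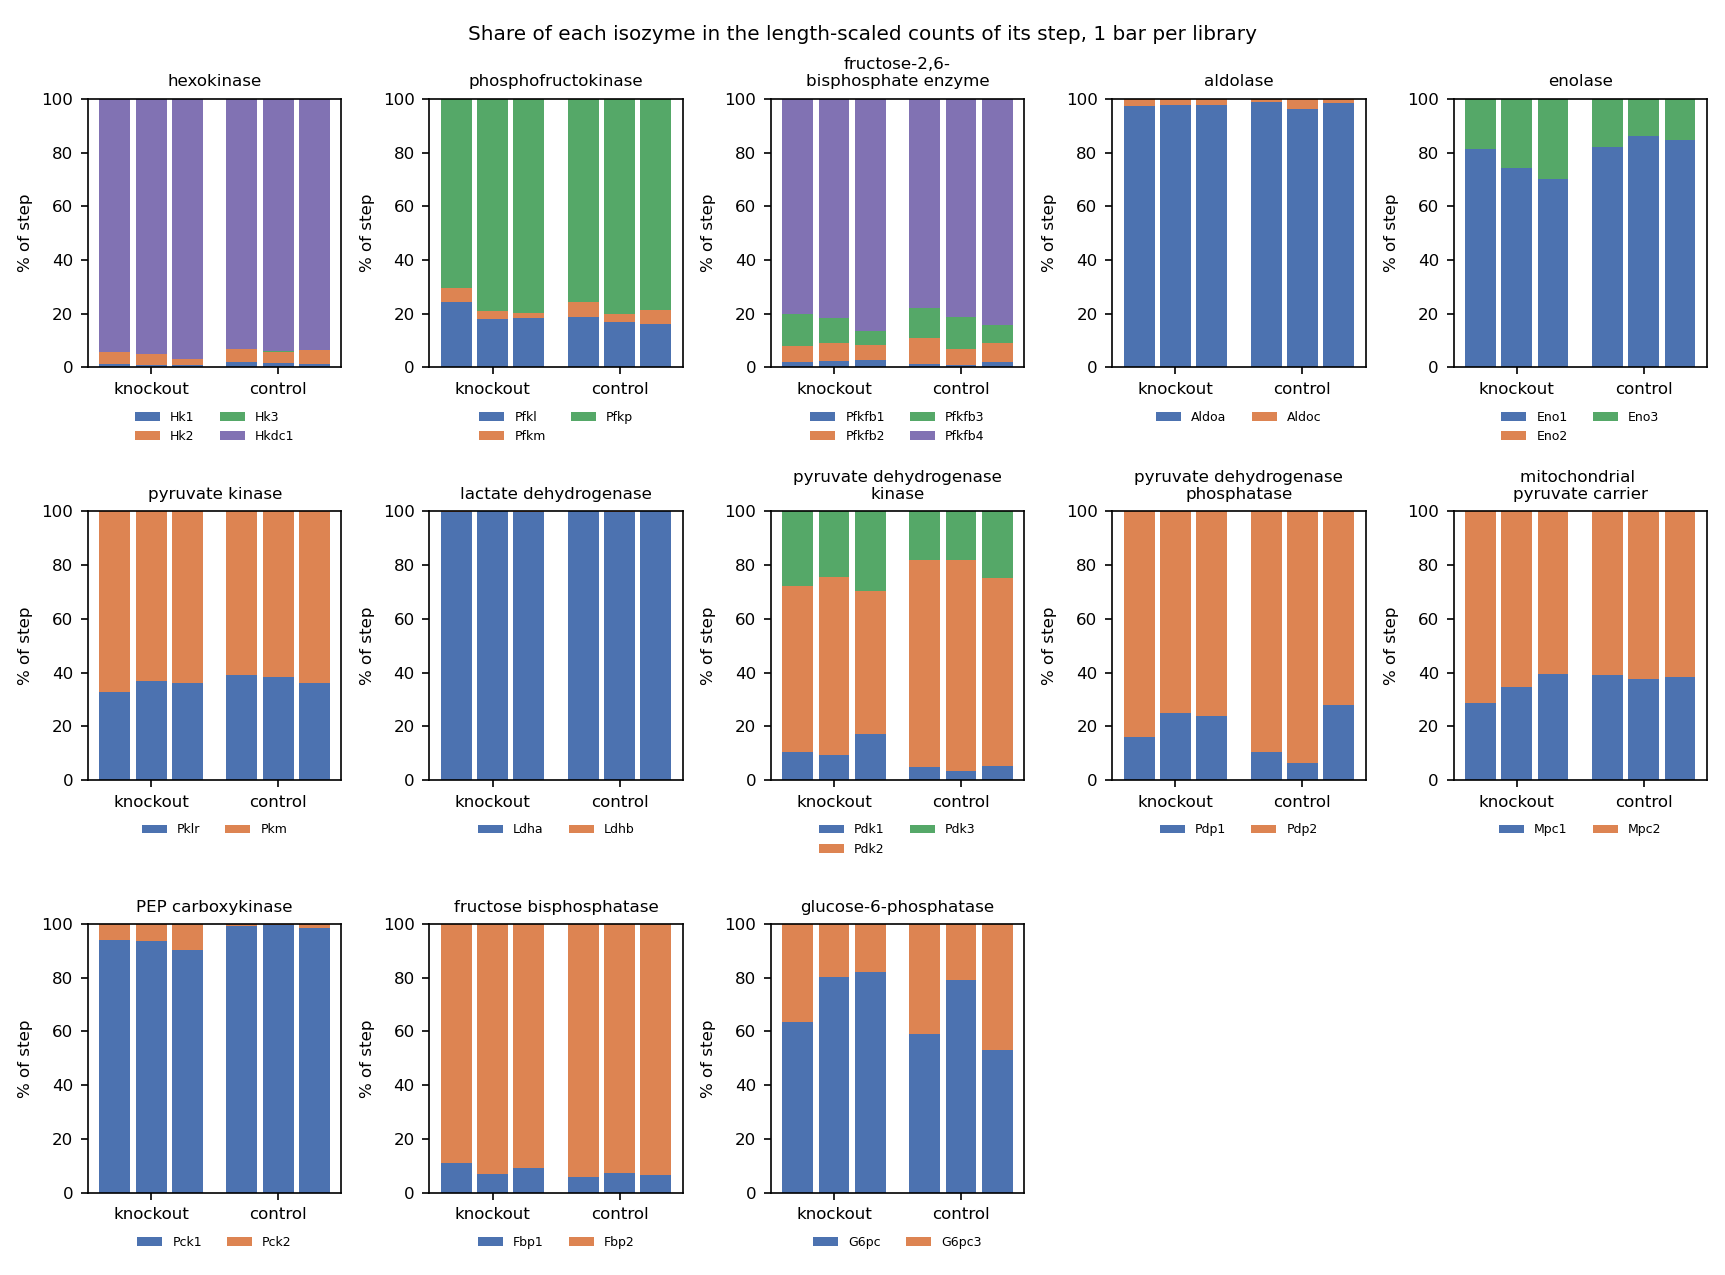
Share of each isozyme in the length-scaled counts of its enzyme step (y axis, percent), 1 stacked bar per library, with 3 knockout bars left of 3 control bars in each of 13 panels. The panels cover the member rows alone, without near-identical copies and without isozymes outside the members, such as Pdk4. The aldolase panel holds Aldoa and Aldoc alone and does not cover all aldolases. Mpc1 and Mpc2 are subunits of 1 carrier. Pdk2 averages 60.4% of the kinase panel in knockout and 75.1% in control.

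Among the gluconeogenic members, 4 passed, in both directions, and 4 did not, beside 35.6% of all genes tested that passed. Both PEP carboxykinases were among those that passed, with opposite signs. Pck1, the cytosolic enzyme that makes phosphoenolpyruvate from oxaloacetate (chr2:173153048-173159273, plus strand), had 107, 109 and 43.4 CPM in knockout libraries, against 341, 611 and 121 CPM in control libraries. All knockout libraries were below all control libraries, and control 486 came close to the upper knockout libraries. The means were 86.3 ± 37.2 CPM in knockout and 358 ± 245 CPM in control (SD, n = 3 each), a log2 ratio of -2.05 with an SE of 0.55 (adjusted p = 0.018). Pck1 had the widest spread among control libraries of any tested member: the highest was 5.05 times the lowest, against 2.51 times among knockout libraries and a members' median of 1.53 in knockout and 1.47 in control. Its call was lost without control 482 (adjusted p = 0.0895), control 483 (0.0503, log2 ratio -1.43) or knockout 477 (0.0617). Pck2, the mitochondrial enzyme (chr14:55540266-55551242, plus strand), had 15.1, 16.5 and 10.5 CPM in knockout libraries, against 5.69, 3.68 and 4.24 CPM in control libraries. The groups were clearly apart. The log2 ratio was 1.63 with an SE of 0.27 (adjusted p = 0.00242), and Pck2 passed in all 17 alternatives. Pck2 remained the minor form, at 7.23% ± 2.05 of the pair's length-scaled counts in knockout and 0.836% ± 0.633 in control, without overlap.

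G6pc, the catalytic subunit that frees glucose from glucose-6-phosphate in liver, kidney and gut (chr11:101367561-101377903, plus strand), had 38.2, 67.6 and 89.1 CPM in knockout libraries, against 19.2, 36.4 and 15.9 CPM in control libraries. The lowest knockout library lay just above the highest control library. The means were 65.0 ± 25.6 CPM in knockout and 23.8 ± 10.99 CPM in control (SD, n = 3 each), a log2 ratio of 1.45 with an SE of 0.37 (adjusted p = 0.0158). G6pc3, the form found in most tissues (chr11:102189620-102194081, plus strand), had 20.3, 15.5 and 17.7 CPM in knockout libraries, against 12.2, 8.81 and 12.9 CPM in control libraries. The groups did not overlap, and the log2 ratio was 0.66 with an SE of 0.23 (adjusted p = 0.0472). G6pc missed the threshold without control 482 (adjusted p = 0.058) or knockout 477 (0.0587), and G6pc3 without control 482 (0.0873), control 483 (0.18), knockout 423 (0.107) or knockout 477 (0.0959). With scaling to library size alone the adjusted p was 0.0504 for G6pc and 0.544 for G6pc3, and without a filter on low counts it was 0.0923 for G6pc3.

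The 4 tested genes of the other gluconeogenic steps did not pass in edgeR or DESeq2, and 1 of them, Fbp2, had an unadjusted p under 0.05. Slc37a4, the transporter that feeds glucose-6-phosphate to these phosphatases, had 62.4, 76.3 and 114 CPM in knockout against 90.3, 133 and 127 CPM in control (log2 ratio -0.47, SE 0.27, adjusted p = 0.19). Fbp2, the muscle-type fructose bisphosphatase, had 236, 242 and 267 CPM in knockout against 285, 375 and 463 CPM in control. All its knockout values lay below all its control values, at a log2 ratio of -0.59 (SE 0.24, adjusted p = 0.0769), and it passed with scaling to library size alone and with the length and GC trends removed. Fbp1, the liver-type enzyme, held the smaller share of the pair and had 33.5, 20.4 and 30.5 CPM in knockout against 20.7, 33.9 and 36.8 CPM in control (log2 ratio -0.11, SE 0.27, adjusted p = 0.767). Pcx, pyruvate carboxylase, had 62.7, 143 and 124 CPM in knockout against 71.4, 77.1 and 68.4 CPM in control. Knockout 423 lay below all control libraries and both other knockout libraries lay above them, so the groups overlapped (log2 ratio 0.60, SE 0.29, adjusted p = 0.127). Without knockout 423 Pcx passed (log2 ratio 0.91, adjusted p = 0.0176).

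**Figure D5:**
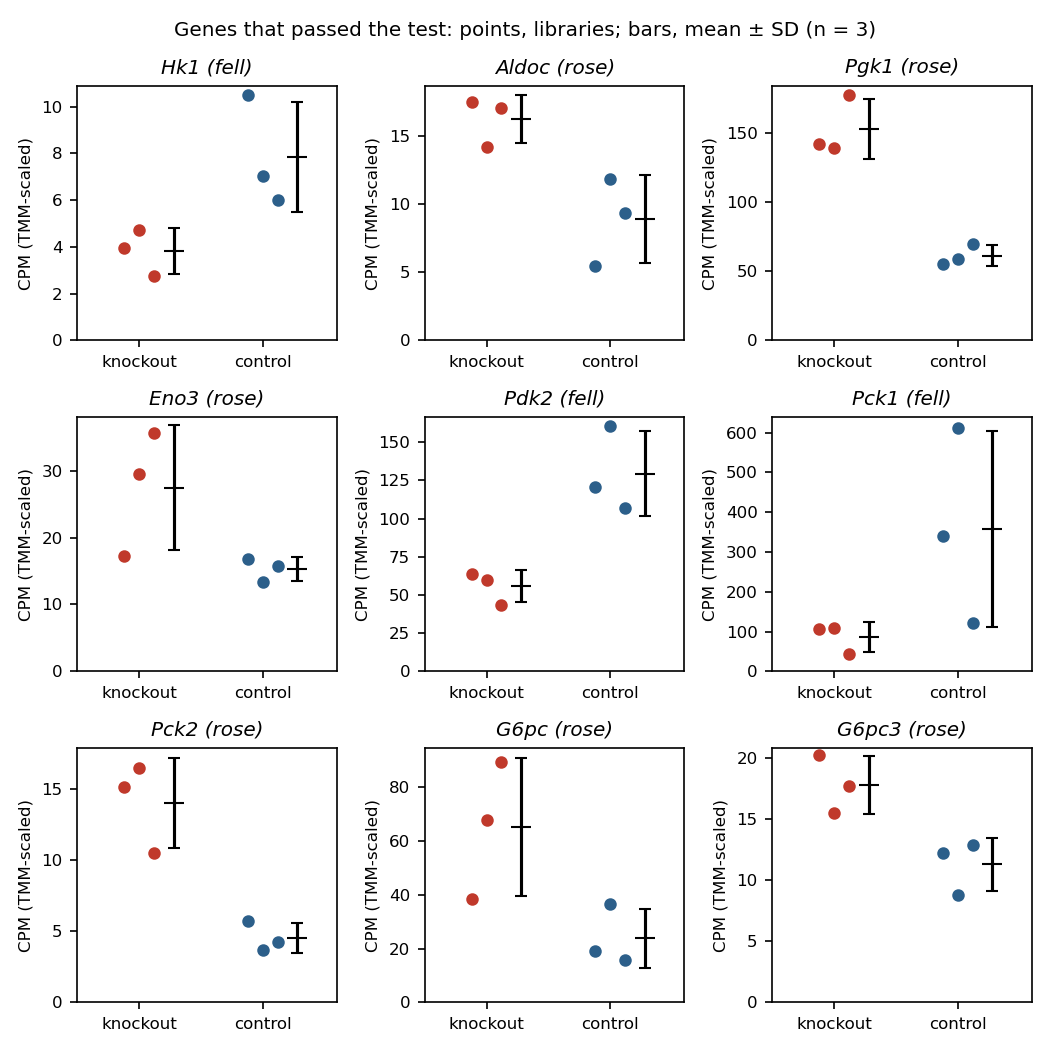
CPM of the 9 members that passed the test in each library (points), knockout left of control, with the group mean and SD. In each panel the knockout and control points do not overlap, and the control points of Pck1, 121 to 611 CPM, are the most spread.

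The 250 bases before the RefSeq starts of Pck1, Pck2 and G6pc (GRCm38.p6, plus strand) are shown because these genes had, with Pgk1, the largest log2 ratios of the members that passed. They lie at chr2:173152823-173153072 for Pck1, chr14:55540016-55540265 for Pck2 and chr11:101367466-101367715 for G6pc, and the GENCODE M21 gene starts of Pck1 and G6pc fall inside their windows. In Pck1, capitals mark TNACGTCA, the cAMP response element with its second base free, 93 bases before the start. In Pck2 they mark the reverse complement of TGATGNAA, the core of the C/EBP-ATF response element, 103 bases before the start. In G6pc they mark the same core on the opposite strand at 138 bases, the nuclear receptor half-site AGGTCA on the opposite strand at 54 bases and the TATA box TATAAA at 29 bases.
Pck1: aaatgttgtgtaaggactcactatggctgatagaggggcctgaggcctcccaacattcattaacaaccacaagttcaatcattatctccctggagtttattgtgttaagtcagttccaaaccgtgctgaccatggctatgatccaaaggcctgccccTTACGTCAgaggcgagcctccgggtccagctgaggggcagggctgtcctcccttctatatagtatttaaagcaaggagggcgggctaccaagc
Pck2: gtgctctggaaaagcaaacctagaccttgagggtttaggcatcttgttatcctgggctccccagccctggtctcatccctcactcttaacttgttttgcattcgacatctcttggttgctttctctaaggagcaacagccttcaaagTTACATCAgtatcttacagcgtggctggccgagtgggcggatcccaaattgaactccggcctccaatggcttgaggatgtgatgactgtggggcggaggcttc
G6pc: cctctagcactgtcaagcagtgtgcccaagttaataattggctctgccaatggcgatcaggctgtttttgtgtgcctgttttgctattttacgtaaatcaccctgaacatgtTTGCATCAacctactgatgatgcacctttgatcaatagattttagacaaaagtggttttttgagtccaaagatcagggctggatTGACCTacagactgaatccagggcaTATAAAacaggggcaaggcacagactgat

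Each motif was searched on both strands in the 250 bases before 68 RefSeq starts of 44 member symbols and before all 32851 starts of the table. Shares of starts with a match were, for members and for all starts, 30.9% and 16.6% for ACGTG, 13.2% and 6.02% for the E-box CACGTG, which contains ACGTG, and 4.41% and 2.52% for TNACGTCA. They were 17.6% and 14% for AGGTCA, 2.94% and 3.45% for TGATGNAA, and 7.35% and 12.4% for TATAAA. A direct repeat of AGGTCA with 1 free base or with 4 free bases between the copies, arrangements that nuclear receptor dimers bind, was in 0 of the 68 member windows and in 0.0335% and 0.0152% of all windows. Several starts of 1 gene overlap, so the windows are not independent, and a match is a description of the letters. The free base in TNACGTCA was chosen after the Pck1 window was seen.

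Genes around these pathways, from lists of related enzymes, carriers and regulators, gave a context for the members, and the shares called, where given, stand against 35.6% over all genes. Among the tested genes of glycolysis and pyruvate handling outside the 45 symbols, Pdk4, described above, rose. Pgm1, which links glucose-6-phosphate to glycogen, also rose (255 ± 63.9 CPM in knockout, 57.1 ± 3.59 CPM in control; log2 ratio 2.16, SE 0.24, adjusted p = 0.000313). Galm, which interconverts the forms of glucose, fell (log2 ratio -0.87, adjusted p = 0.0115), and 2 genes of this list fell without knockout 476. Of 14 tested glycogen genes 1 rose and 3 fell (28.6% called, median -0.41). Ugp2, which makes UDP-glucose, rose (433 ± 92.7 CPM in knockout, 143 ± 24.7 CPM in control). The phosphorylase Pygl (log2 ratio -2.92), the branching enzyme Gbe1 (-0.99) and the phosphorylase kinase subunit Phkb (-0.65) fell, and 1 glycogen gene fell without control 482, knockout 423 or knockout 476. Of 20 tricarboxylic acid cycle genes 2 rose (Idh1 0.92, Sdhd 0.98) and 3 fell (Ogdh -0.91 and Aco1 -0.80 among them), with 25% called and a median of 0.19. Of the cycle genes, 5 rose without control 486, 1 without control 483 or knockout 423, and 0 without control 482, knockout 476 or knockout 477, where 2 each had an unadjusted p under 0.05. None fell without control 483, knockout 423 or knockout 477, where 3, 4 and 3 had such a p, and DESeq2 on all libraries counted 3.

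Carriers of glucose, lactate and pyruvate gave 4 that fell of 10 tested (40% called, median -0.44). None rose in the edgeR fit, 1 had an unadjusted p under 0.05 in that direction, and DESeq2 counted 0. The ones that fell were Slc5a8 (log2 ratio -7.53) and Slc5a12 (-3.56), which take up lactate and pyruvate with sodium, and the glucose transporters Slc2a2 (-2.71) and Slc5a1 (-1.96). Slc16a1, the lactate carrier MCT1, had a log2 ratio of -0.24 (adjusted p = 0.428). Genes of the NADH shuttles, alanine transaminases and malic enzymes gave 8 that rose and 2 that fell of 15 (66.7% called, median 0.86). Me1, which makes NADPH from malate, had 696 ± 101 CPM in knockout and 94.1 ± 46.7 CPM in control (log2 ratio 2.89, SE 0.41, adjusted p = 0.00103), and Got2, the mitochondrial aspartate transaminase, had 79.7 ± 21.0 CPM in knockout and 17.2 ± 1.56 CPM in control (2.21, SE 0.24, adjusted p = 0.000257). Slc25a1, the citrate carrier, also rose (319.8 ± 63.5 CPM in knockout, 118 ± 8.91 CPM in control; log2 ratio 1.44, adjusted p = 0.00181). Me2, a mitochondrial malic enzyme, fell (185 ± 26.2 CPM in knockout, 604.5 ± 106 CPM in control; log2 ratio -1.71, SE 0.24, adjusted p = 0.000994). Fructolysis and the pentose phosphate path gave 6 that rose and 2 that fell of 10 (80% called, median 0.90), among them Rpia (1.52), Tkt (1.30), Pgd (1.00) and the fructose transporter Slc2a5 (-1.42). In that list 1 gene fell on leaving out any animal but control 486, and of the shuttle list 1 fell without knockout 477.

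Of 26 regulators of these paths 2 rose and 6 fell (30.8% called, median -0.14). Ppara, a nuclear receptor of fatty acid oxidation, rose (100.5 ± 11.8 CPM in knockout, 23.4 ± 3.88 CPM in control; log2 ratio 2.11, adjusted p = 0.00018), as did Cebpa (1.15). Ppargc1a, a coactivator that raises gluconeogenic genes in liver, fell (12.4 ± 2.73 CPM in knockout, 38.9 ± 9.91 CPM in control; log2 ratio -1.65, adjusted p = 0.00176). Mlxipl, the carbohydrate response factor ChREBP, fell (-1.59, adjusted p = 0.00929), and Sirt1 fell (-1.31). Hif1a, which encodes a subunit of the hypoxia factor HIF, had a log2 ratio of 0.22 (adjusted p = 0.51). This is its RNA level, and the HIF protein was not measured. Of 14 HIF-regulated genes outside glycolysis 3 rose and 3 fell (42.9% called, median -0.33), with Bnip3 (2.09) and Higd1a (1.16) up and Ndrg1 (-1.25) and P4ha1 (-1.78) down. When single animals were left out, 0 to 4 of these genes fell: 1 without control 482 and 0 without knockout 423, where 4 had an unadjusted p under 0.05 and the DESeq2 count on all libraries was 4.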

How the data were processed

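The members, the related gene lists and the tests were chosen with earlier results of these data known. The 6 libraries came as raw read counts per gene, whole numbers that the authors deposited without normalization. The submitters' processing notes name build mm10 and bcl2fastq, fastp (0.21.0), STAR (2.7.9a), featureCounts from Subread (1.6.2), FastQC (0.11.7) and DESeq2 (1.23.10). The sources used here do not give the strand setting or the treatment of reads with several matches. The authors also deposited variance-stabilised log2 values, used in 1 alternative. Groups came from the sample titles. Each library is 1 mouse by its number.

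Counts were tested with edgeR 4.0.16 (default filter on low counts, TMM, robust quasi-likelihood fit, Benjamini-Hochberg over 15028 genes, threshold 0.05). SEs were derived from the F statistic. CPM use TMM-scaled totals and no prior count. Exon lengths, coordinates and overlaps came from GENCODE M21, near copies, an alternative chosen after seeing the data, from blastn 2.17.0 and promoters from RefSeq GRCm38.p6. Identifiers matched a symbol in 55190 of 55450 rows, and unmatched rows took at most 0.00294% of a library. The edgeR, DESeq2 1.42.0 and limma 3.58.1 steps were tested on simulated data. Lists are described by counts and medians only. Isozyme shares carry no test. Members that passed, the 8 most abundant others per length and the gluconeogenic enzymes are given per library, and from each list up to 4 genes with the smallest adjusted p. Pfkfb1, Pdk1, Gapdh, Slc16a1, Mlxipl, Hif1a and members whose call moved with 1 animal were named after their values were seen, and so were the isozyme shares of Pfkfb, Pdp, Mpc and glucose-6-phosphatase. The second targeted gene and 1 gene of a related list are not reported here. Counting floors cover counting error only, and for Eno2 only that of the knockout counts.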

Additional observations from a re-analysis of the deposited data

How the results depend on the processing

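Of 725 alternative values of single members, 616 kept their direction and side of the threshold, 36 lost a call, 30 gained one and 43 changed sign, none of the last among the 9 members that passed. Pgk1, Pck2 and Pdk2 passed in every alternative run. No cause of a change below was tested. No paired analysis was possible because the groups share no animal number.

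With scaling to library size alone, 1133 genes rose and 4554 fell; 2 members rose and 11 fell. Falling counts were then 3 for other glycolytic genes, 6 for the tricarboxylic acid cycle, 7 for glycogen, 12 for regulators and 6 for HIF-regulated genes, and rising counts 0 for the cycle (2 at an unadjusted p under 0.05) and 2 for fructolysis and pentose phosphate. With length and GC trends removed, 11 members rose, and rising counts were 1 for the cycle, 1 for carriers and 6 for regulators; falling counts were 0 for the cycle (2 unadjusted) and 1 each for glycogen, NADH shuttles and fructolysis. Without a filter, 2 other glycolytic and 5 HIF-regulated genes fell. Tested against a 1.5-fold change, 2 members rose.

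Without 1 animal, 1510 to 2958 genes rose and 1748 to 2982 fell, 2 to 7 members rose and 1 to 3 fell. Falling counts were 1 to 2 for other glycolytic genes, 0 to 2 for the cycle, 1 to 3 for glycogen, 1 to 2 for NADH shuttles, 0 to 4 for HIF-regulated genes and 1 to 2 for fructolysis; rising counts for the cycle were 0 to 5.

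Each sign change was in a member that did not pass the test. They were, with DESeq2 size factors, Pkm 0.023 and Eno1 0.00; with TMM without the 20 most abundant genes, Pkm 0.0071; with upper-quartile scaling, Pfkfb3 0.0015, Pkm 0.045 and Eno1 0.024; with near copies, Pkm 0.0044 and Gapdh 0.77. With length and GC trends removed they were Pgam1 -0.0042, Hkdc1 0.19, Pfkp 0.52, Pfkfb2 0.14, Pfkfb3 0.40, Pkm 0.51, Pklr 0.048, Pdp2 0.069, Gapdh 0.13 and Eno1 0.50. With library size alone they were Pdhx -0.075, Pgam1 -0.36, Pfkl -0.31, Mpc1 -0.082, Pfkfb4 -0.31, Aldoa -0.0035 and Gpi1 -0.24. Without 1 animal, log2 fold changes ran from -0.16 to 0.014 for Dld, -0.077 to 0.056 for Eno1, -0.34 to 0.085 for Fbp1, -0.38 to 0.34 for Gapdh, -0.42 to 0.19 for Pdp2, -0.57 to 0.0008 for Pfkfb2, -0.36 to 0.26 for Pfkfb3, -0.079 to 0.32 for Pfkfb4, -0.18 to 0.048 for Pfkp, -0.042 to 0.24 for Pgam1, -0.25 to 0.023 for Pklr and -0.061 to 0.11 for Pkm.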
